A study of Mus musculus with 2 samples.

Results

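The loci of the transcription factor genes Tead1, Meis1 and Meis2 were compared between H3K27ac peak lists of the atrioventricular canal (AVC) and the heart chambers of the mouse embryo. H3K27ac, the acetylated form of lysine 27 on histone H3, marks promoters and enhancers in use. A peak belonged to a locus when its midpoint lay in a 400 kb window of the mm9 genome, chr7:119720001-120120000 for Tead1, chr11:18650001-19050000 for Meis1 and chr2:115600001-116000000 for Meis2. The windows held 358 of the 154664 peaks of both lists: 118 AVC and 107 chamber peaks at Tead1, 25 and 41 at Meis1, and 29 and 38 at Meis2. Members were chosen by peak position in windows that had been set with results of these lists in view, so their counts and signal values are given as a description, without a test.

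Tead1 encodes a TEA-domain factor that binds MCAT elements of cardiac muscle genes and acts as the DNA-binding partner of YAP and TAZ, the effectors of the Hippo pathway that controls growth of the heart wall. Mouse embryos without Tead1 form thin-walled hearts. Meis1 and Meis2 encode homeodomain proteins of the TALE class, which bind DNA together with Pbx and Hox proteins. In mice, Meis1 loss disturbs septation of the heart and its outflow tract, and Meis2 acts in the cardiac neural crest.

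The AVC sample was sorted as EGFP-positive and the chamber sample as Katushka-positive cells, 2 fluorescent proteins whose driver genes the labels do not give. Both came from FVB/N embryos at stage E10.5, both carried the genotype label Katushka+ EGFP+, and each tissue had 1 library, so no difference has a replicate check. The AVC is the segment between atria and ventricles that slows conduction and forms the valve cushions; the chambers are the atria and ventricles. The tissue labels were not checked against marker genes, because mm9 gene positions were not used here. For the same reason peaks are given by position and not as promoter, exon or intron. In the GRCm38 annotation the protein-coding neighbours are Parva and Rassf10 for Tead1, Etaa1 and Spred2 for Meis1, and BC052040 and Tmco5 for Meis2. The long non-coding genes Gm16141 and G630016G05Rik overlap Meis1 and Meis2. Peaks in the windows may therefore belong to other genes.

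Each peak carries a signal value, a whole number that the files do not name and that is not scaled between the lists, and a score, the caller's Log(ER), set within each chromosome. Peaks with a score of 5 or more are called stronger here. The lists held 87572 AVC and 67092 chamber peaks, so that 56.6% of all peaks were AVC peaks, and AVC peaks were the wider ones, with a median of 472 bp against 325 bp. Sequencing depth is unknown. Where a list has no peak, the mark was not called, and it may still be present. More marked cells and more acetylation per cell cannot be told apart in such bulk samples.

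RefSeq promoter sequences were at hand for 2 of the 3 genes and show what the start of each Meis gene looks like. Each line runs 5′ to 3′ on the gene's strand, from 250 bases before to 50 bases after its start, with CG dinucleotides in capitals. The coordinates are those of build GRCm38.p6, minus strand, chr11:19018920-19019219 for Meis1 and chr2:116064570-116064869 for Meis2, and are not mm9 positions.
Meis1: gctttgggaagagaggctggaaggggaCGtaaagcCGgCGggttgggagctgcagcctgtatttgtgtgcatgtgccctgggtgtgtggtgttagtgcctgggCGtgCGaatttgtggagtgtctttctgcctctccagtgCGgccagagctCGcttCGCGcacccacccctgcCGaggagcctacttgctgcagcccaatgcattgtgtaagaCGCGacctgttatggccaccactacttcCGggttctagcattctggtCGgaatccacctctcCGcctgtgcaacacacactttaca
Meis2: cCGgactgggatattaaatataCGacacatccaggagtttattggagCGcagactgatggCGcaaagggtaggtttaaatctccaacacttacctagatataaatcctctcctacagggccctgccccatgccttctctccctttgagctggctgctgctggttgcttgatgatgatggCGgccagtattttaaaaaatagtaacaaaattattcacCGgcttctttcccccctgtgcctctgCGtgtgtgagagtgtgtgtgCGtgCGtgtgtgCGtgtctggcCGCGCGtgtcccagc
There were 15 CG dinucleotides in the Meis1 and 13 in the Meis2 sequence, against a median of 7 over 32851 promoters. Searched on both strands, neither sequence held the Meis core TGACAG, which 19.2% of all promoters hold, nor the MCAT core GGAATG of TEAD factors, which 14.7% hold. These sequences were not placed among the mm9 peaks.

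Tead1 had the densest acetylation of the 3 loci, and its window was among the densest of the genome in both tissues. Of 6217 fixed 400 kb tiles with a peak, 1 held more than its 118 AVC peaks and 1 more than its 107 chamber peaks, where the median tile held 11 AVC and 7 chamber peaks. AVC peaks covered 57.4 kb (14.4%) of the window and chamber peaks 43.5 kb (10.9%), against medians of 1.34% and 0.533% over the tiles. Meis1 and Meis2 were less dense. More AVC peaks than the 25 at Meis1 and the 29 at Meis2 lay in 913 and 632 tiles, and more chamber peaks than their 41 and 38 in 154 and 204. The tiles were laid without regard to genes, while the windows were centred near them, so these ranks favour the windows.

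**Figure D1:**
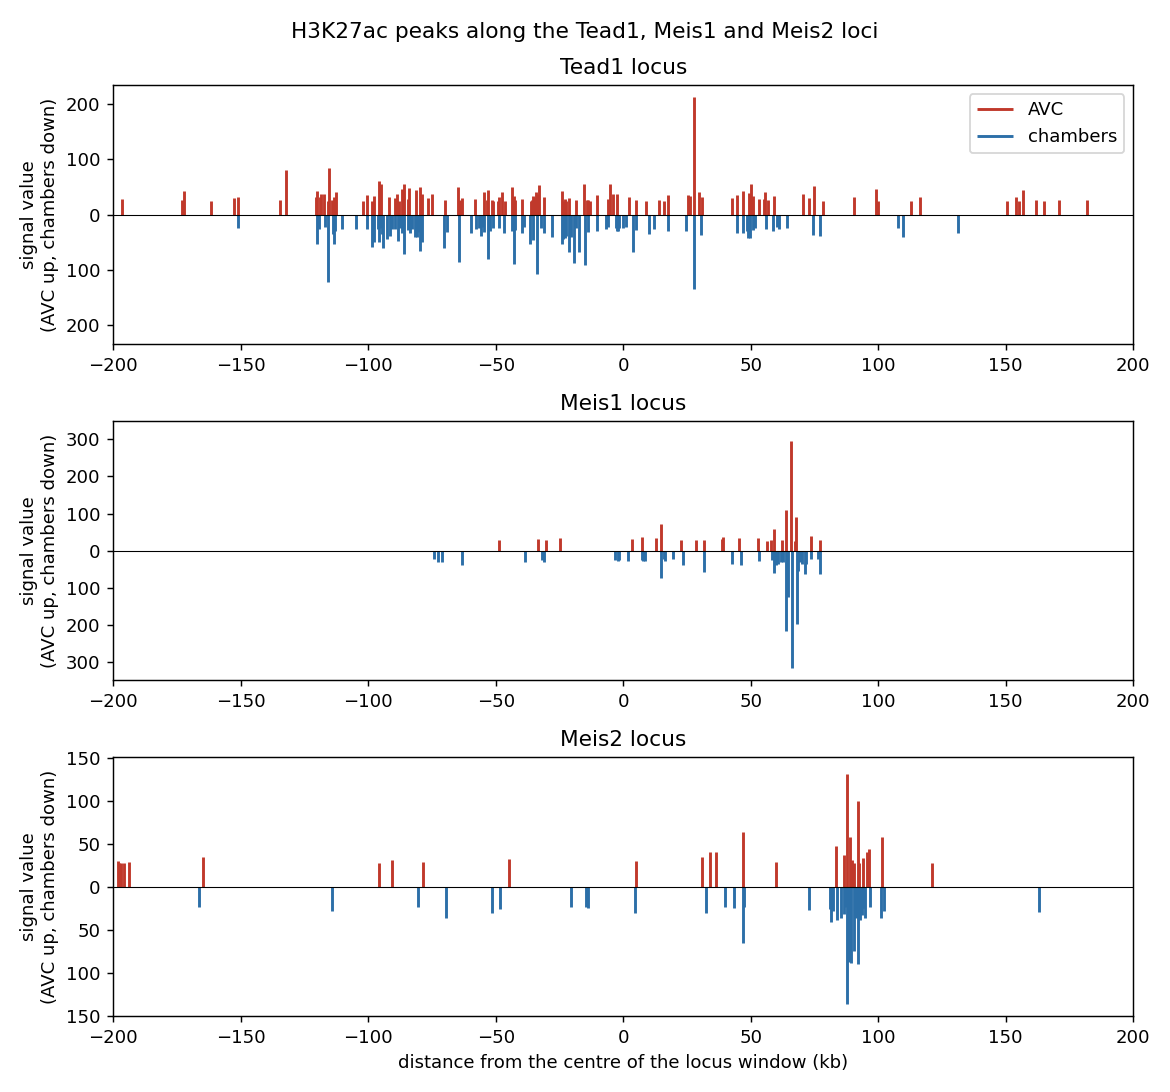
Signal value of every AVC peak (upward lines) and chamber peak (downward lines) along the 3 windows, against distance from the window's centre in kb; 1 library per tissue. Tead1 peaks are spread over most of the window, while at Meis1 and Meis2 the highest values (297 AVC and 318 chambers at Meis1, 131 and 137 at Meis2) stand in a single short stretch.

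AVC peaks made up 52.4% of the Tead1 peaks (exact 95% interval 45.7 to 59.1), 37.9% at Meis1 (26.2 to 50.7) and 43.3% at Meis2 (31.2 to 56.0), against 56.6% of both whole lists. The intervals cover counting error only and treat neighbouring peaks as independent, so they are too narrow. On the loci's own chromosomes the AVC share was 61.3% (chromosome 7, Tead1), 50.8% (chromosome 11, Meis1) and 53% (chromosome 2, Meis2). The Meis1 interval lay below both backgrounds, the second only just. At Tead1 and Meis2 the reading depended on the background: the Tead1 interval included the share of the whole lists and lay below that of chromosome 7, and the Meis2 interval lay just below the share of the whole lists and included that of chromosome 2. Among stronger peaks there were 17 AVC and 30 chamber peaks at Tead1, 5 and 10 at Meis1, and 5 and 6 at Meis2. The AVC share of these was 36.2% (22.7 to 51.5), 33.3% (11.8 to 61.6) and 45.5% (16.7 to 76.6), against 41.8% of all stronger peaks, a value inside each of the 3 intervals.

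At Tead1 peaks followed each other closely over a long stretch in both tissues. Joining peaks of a list whose gaps were at most 10 kb gave an AVC run of 71 peaks over 133 kb (119817911 to 119951047) and a chamber run of 88 peaks over 151 kb (119799446 to 119950875). Ranked by number of peaks, these had rank 5 among 45167 AVC runs and rank 2 among 33186 chamber runs. Peaks covered 34.3 kb of the AVC run and 36.7 kb of the chamber run, which held 12 and 28 stronger peaks. The 20 kb from 119880001 held the most AVC peaks of any bin, 14, with 15 chamber peaks, and the 20 kb from 119820001 held the most chamber peaks, 22, with 13 AVC peaks.

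AVC peaks reached further out than chamber peaks in the Tead1 window. In the outer 100 kb at either end of the window there were 32 AVC and 14 chamber peaks, an AVC share of 69.6% (54.2 to 82.3), against 86 and 93 peaks in the inner 200 kb, a share of 48.0% (40.5 to 55.6). The share of all peaks, 56.6%, and that of chromosome 7, 61.3%, lay inside the interval of the outer and above that of the inner part. The first AVC peak began at 119723365 and the first chamber peak at 119768934. The last AVC peak ended at 120101960 and the last chamber peak at 120051584, so the AVC peaks spanned 379 kb and the chamber peaks 283 kb. The flanking AVC peaks were mostly weak. In the 60 kb from 120060001 there were 8, with signal values of at most 44, and no chamber peak.

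The highest signal values at Tead1 belonged to a narrow region called in both tissues, at 119947546 to 119947784. Its AVC peak was 239 bp wide with a signal value of 213 and a score of 22.15, and its chamber peak 188 bp wide with 135 and 21.38. It had the highest AVC-to-chamber value ratio of the locus. In the whole lists 2054 of 2057 AVC and 1818 of 1819 chamber peaks that were under 300 bp wide with a score of 10 or more also overlapped the other list. Broad peaks followed. At 119803861 to 119805110 the AVC value was 84 and the chamber value 121, and at 119885570 to 119887712 the AVC value was 54 and the chamber value 108. At both the chamber list had the higher unscaled value.

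A broad AVC peak without any chamber peak nearby stood at the edge of the dense Tead1 stretch. It lay at 119787242 to 119788381, was 1140 bp wide, and had a signal value of 80 and a score of 10.49, the third highest AVC value of the locus and rank 197 of the 6871 AVC peaks of chromosome 7. The nearest chamber peak was 11064 bp away. Among all AVC peaks with a score of 10 or more, 3127 of 3188 overlapped a chamber peak. These include 2057 peaks under 300 bp wide, of which 2054 overlapped, so the share among wider peaks was lower. The next AVC peak by signal value without overlap lay at 119914652 to 119915447, with a value of 55 and a chamber peak 508 bp away.

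The 2 highest chamber peaks without AVC overlap at Tead1 stood inside the dense stretch. The first by signal value, at 119900290 to 119901015, had a value of 87 and a score of 13.35, and the second, at 119923381 to 119924086, had 68 and 9.85; AVC peaks lay 375 bp and 658 bp away. The first belonged to the longest chain of chamber peaks, 10 peaks with gaps of at most 1 kb over 7.47 kb (119895464 to 119902937). Of these, 6 were stronger peaks. The same stretch held 6 AVC peaks, none of them stronger, with signal values of at most 42. It was picked by its chamber peaks, which favours that list. The longest AVC chain ran over 3.92 kb (119830280 to 119834201) with 5 peaks, 2 of them stronger, and held 5 chamber peaks, 2 of them stronger. Chains were ranked by length in bases, and a slightly shorter AVC chain, from 119883707 to 119887500, held more AVC peaks.

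Stronger Tead1 peaks mostly had a counterpart in the other tissue. Of the 17 stronger AVC peaks, 10 overlapped a stronger chamber peak, 4 a weaker one, 1 had a chamber peak within 1 kb and 2 had none. Of the 30 stronger chamber peaks, 10 overlapped a stronger AVC peak, 13 a weaker one and 7 had an AVC peak within 1 kb. So 14 of 17 and 23 of 30 overlapped the other list at all, against 75.4% of stronger AVC peaks and 70.8% of stronger chamber peaks in the whole lists. These shares, 82.4% and 76.7%, were close to that background.

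At Meis1 acetylation was concentrated in one block of broad peaks shared by both tissues. No peak of either list lay in the first 126 kb of the window, up to 18775736, or after 18927339. The highest AVC peak, at 18914472 to 18917184, was 2713 bp wide with a signal value of 297 and a score of 25.71. It overlapped the highest chamber peak, 18915167 to 18917083, 1917 bp wide with a value of 318 and a score of 32.27, which ranked 21st of 4349 chamber peaks on chromosome 11; the AVC peak ranked 68th of 4482. Its neighbours were higher in the chamber list. At 18913064 to 18914448 the AVC value was 110 and the chamber value 216, and at 18917211 to 18918459 the AVC value was 90 and the chamber value 199.

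Around the Meis1 block the chamber list called more peaks, 15 against 7 in the 20 kb from 18910001, the fullest bin of both lists. The longest chamber chain ran over 13.7 kb, from 18908304 to 18921994, with 15 peaks, 7 of them stronger. AVC peaks in it numbered 6, with 4 stronger. The chain was picked by its chamber peaks, which favours that list. The longest AVC chain ran over 6.28 kb, from 18912041 to 18918321, with 5 peaks covering 85.2% of it, and held 6 chamber peaks. The highest chamber peaks without AVC overlap lay beyond the block, at 18920671 to 18921496 (signal value 64, score 8.41, 1741 bp from the nearest AVC peak) and 18918560 to 18918933 (55, 6.89, 238 bp). The highest AVC peaks without chamber overlap were weak. They lay at 18889079 to 18889583 with a value of 38 and at 18862684 to 18863158 with 35. All 5 stronger AVC peaks of the locus overlapped a stronger chamber peak (interval 47.8 to 100), against 54.2% of all stronger AVC peaks. Of the 10 stronger chamber peaks, 6 overlapped a stronger AVC peak and 2 a weaker one. That is 80.0% with any overlap, against 70.8% of all stronger chamber peaks.

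At Meis2 the acetylated block was lower than at Meis1, and similar in height in the 2 lists. The highest AVC peak, at 115887230 to 115888502, had a signal value of 131 and a score of 15.97, and overlapped the highest chamber peak, 115887297 to 115888170, with 137 and 20.81. At 115891809 to 115892466 the AVC value was 100 and the chamber value 90. Between these the lists differed. At 115889077 to 115889928 the AVC value was 31 and the chamber value 89, and at 115890325 to 115890828 the AVC value was 27 and the chamber value 75. Those AVC peaks scored 2.51 and 2.07, close to the caller's threshold of 2, while the chamber peaks scored 12.89 and 10.41.

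The longest Meis2 chamber chain held 14 peaks over 9.84 kb (115885263 to 115895099) and the longest AVC chain 7 peaks over 6.38 kb (115886371 to 115892748). Apart from the block, a region at 115846364 to 115847280 was called in both lists, with a value of 64 in the AVC and 65 in the chambers. None of the 5 stronger AVC and 6 stronger chamber peaks was without overlap. In the whole lists 75.4% of stronger AVC and 70.8% of stronger chamber peaks overlapped, so these few peaks show little beyond that background. The highest AVC peaks without overlap, at 115833752 to 115834665 and 115836159 to 115836812, had values of 40 each, and the highest chamber peaks without overlap, at 115881121 to 115881521 and 115730272 to 115730554, had 41 and 37. At the left end of the window, from 115601652 to 115606178, 5 weak AVC peaks with values of at most 30 stood with no chamber peak. The longest stretch without a peak of either list was 49.9 kb, from 115635536 to 115685455.

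**Figure D2:**
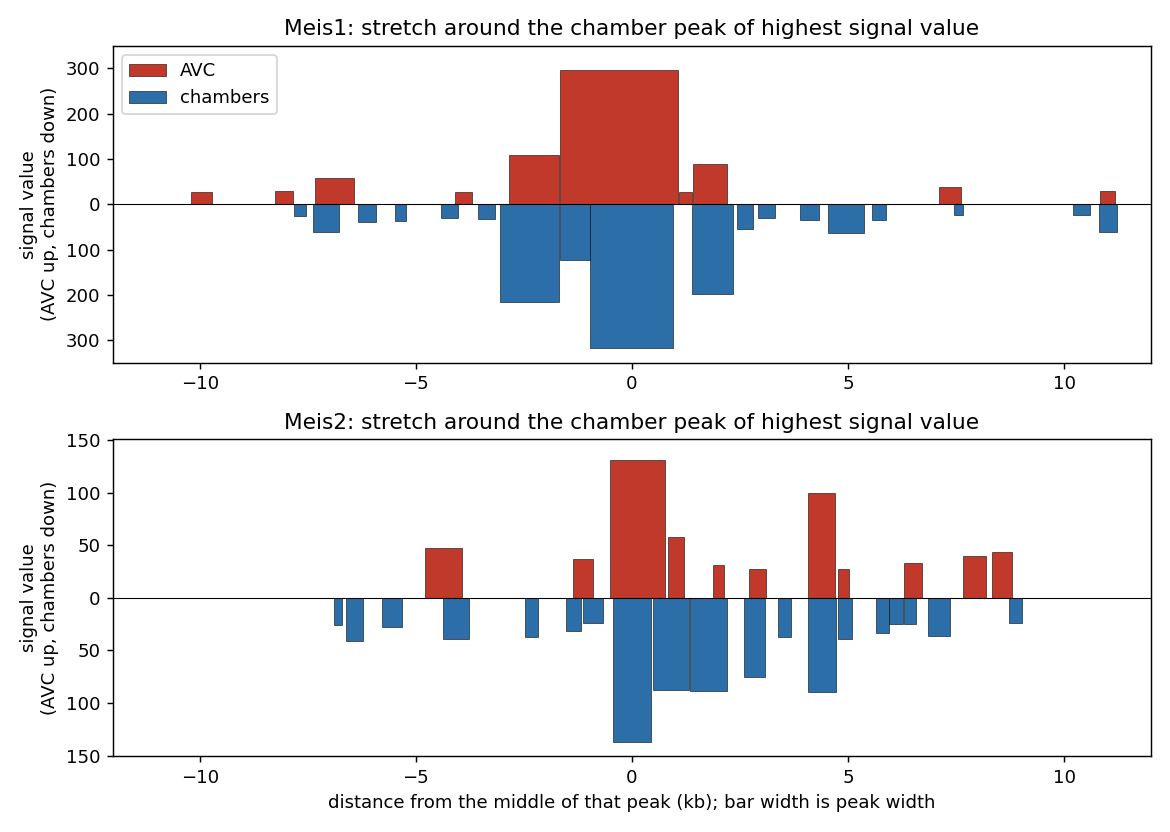
Peaks within 12 kb of the chamber peak of highest signal value at Meis1 and Meis2, AVC upward and chambers downward; bar width is peak width in kb and bar height the signal value, 1 library per tissue. At Meis1 a 2713 bp AVC peak faces chamber peaks of 318 and 124, and at Meis2 the chamber peaks of 89 and 75 face AVC peaks of 31 and 27.

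The loci differed in how peaks were spread over the window. At Tead1, AVC peaks occupied 19 and chamber peaks 14 of the 20 bins of 20 kb, and the fullest bin held 11.9% of the AVC and 20.6% of the chamber peaks. At Meis1 the fullest bin, from 18910001, held 7 AVC and 15 chamber peaks, 28.0% and 36.6% of each list's peaks there. At Meis2 the fullest bin, from 115880001, held 11 AVC and 19 chamber peaks, 37.9% and 50%. In tiles with at least 20 peaks of a list, the median share in the fullest bin was 17.6% (AVC) and 21.7% (chambers). By this measure the Meis loci were more concentrated than the median tile. The Tead1 share was below that of the median tile in the AVC and close to it in the chambers. The share in the fullest bin also depends on the number of peaks, which was not matched between loci and tiles.

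**Figure D3:**
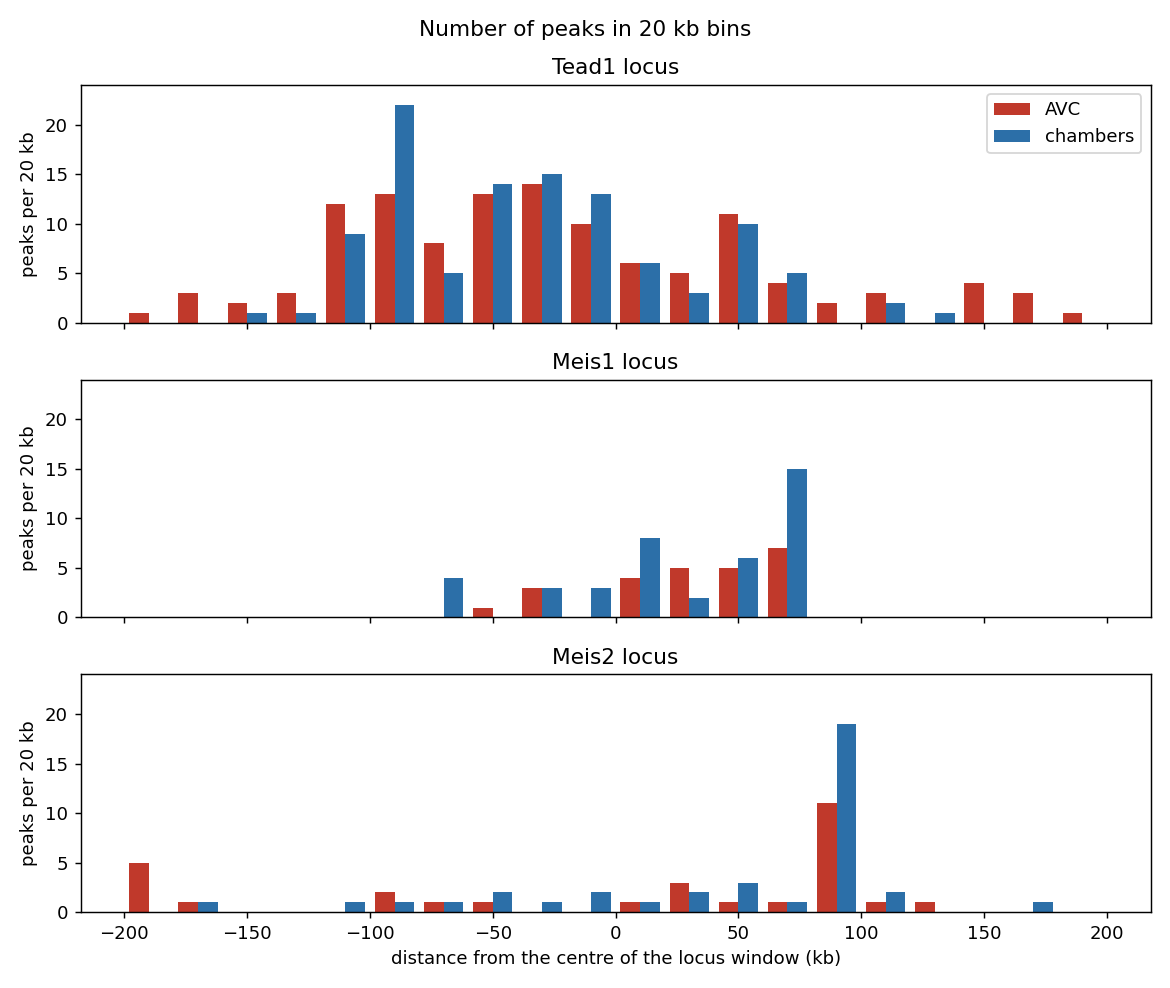
Peaks per 20 kb bin in the 3 windows, AVC left and chambers right in each bin, against distance from the window's centre in kb; 1 library per tissue. The chamber bars reach 22 at Tead1, 15 at Meis1 and 19 at Meis2, where the AVC bars of the same bins reach 13, 7 and 11.

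AVC peaks overlapped a chamber peak more often at these loci than in the whole list. At Tead1 65 of 118 AVC peaks did so, 55.1% (45.7 to 64.3), at Meis1 12 of 25, 48.0% (27.8 to 68.7), and at Meis2 13 of 29, 44.8% (26.4 to 64.3), against 23.2% of all AVC peaks. On chromosomes 7, 11 and 2 the share of AVC peaks was 23.5%, 29.8% and 25.1%. The Meis1 interval included the share of chromosome 11, and the Meis2 interval lay just above that of chromosome 2. Chamber peaks overlapped an AVC peak in 59 of 107 cases at Tead1, 55.1% (45.2 to 64.8), in 12 of 41 at Meis1, 29.3% (16.1 to 45.5), and in 14 of 38 at Meis2, 36.8% (21.8 to 54.0), against 31.6% of all chamber peaks. For chamber peaks the shares at Meis1 and Meis2 were thus near the background, and Tead1 stood above it. Merged into regions, 34.0% of the Tead1, 20.8% of the Meis1 and 23.1% of the Meis2 regions were called in both lists, against 14.5% of all regions. AVC alone held 53, 13 and 16 regions, or 34.6%, 24.5% and 30.8% of those at each locus, against 50.8% of all regions. The chambers alone held 48, 29 and 24, or 31.4%, 54.7% and 46.2%, against 34.7%.

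Stronger peaks made up 14.4% of AVC peaks at Tead1 (8.62 to 22.1), 20% at Meis1 (6.83 to 40.7) and 17.2% at Meis2 (5.85 to 35.8), against 9.95% of the whole AVC list, which all 3 intervals included. In the chambers they made up 28.0% at Tead1 (19.8 to 37.5), 24.4% at Meis1 (12.4 to 40.3) and 15.8% at Meis2 (6.02 to 31.3), against 18.1% of the whole list. Of these, the Tead1 interval alone lay above the list, and it included the 20.2% of chamber peaks on chromosome 7. Counted at the whole list's overlap in each of 5 score classes, 26.1% of the Tead1 AVC peaks and 38.0% of the Tead1 chamber peaks would overlap, below the measured 55.1% of each. The same count gave 29.1% and 35.5% at Meis1, and 27.4% and 33.7% at Meis2, each inside the overlap interval of its locus and list. Of the 3 loci, Tead1 had both the highest peak density and the highest overlap in each list. AVC peaks covered 14.4% of the Tead1 window and chamber peaks 10.9%. Chamber peaks covered 4.75% of the window at Meis1 and 3.63% at Meis2, and AVC peaks 3.84% and 3.82%. The chamber overlap intervals of these loci, 16.1 to 45.5 and 21.8 to 54.0, largely coincided. The part of peak density in the overlap was not tested.

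**Figure D4:**
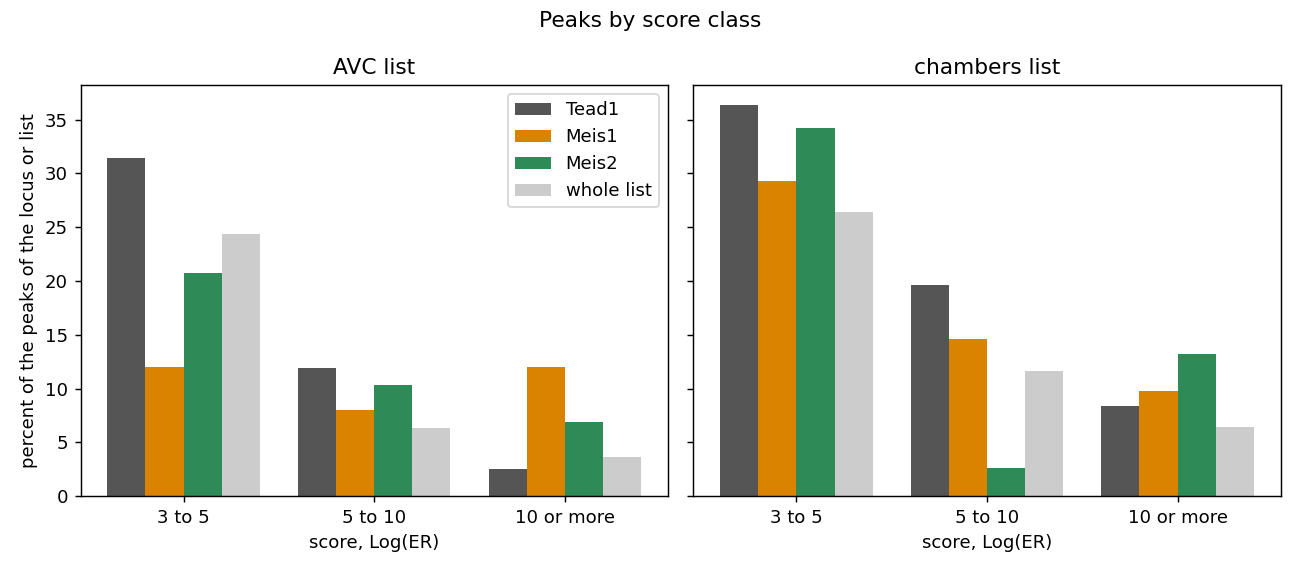
Percent of the peaks of each locus in 3 score classes beside the whole list, AVC on the left and chambers on the right; peaks with scores from 2 to 3 make up the rest, and there is 1 library per tissue. In the top class the bars of the chamber list stand at 8.41% (Tead1), 9.76% (Meis1) and 13.2% (Meis2), against 6.46% of the list, and those of the AVC list at 2.54%, 12% and 6.9%, against 3.64%.

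Signal values at regions called in both lists were compared after dividing each AVC-to-chamber ratio by 1.1, its median over all 19231 such regions. The median scaled ratio was 0.893 over 52 regions at Tead1 (range 0.369 to 1.43), 0.846 over 11 at Meis1 (0.41 to 1.47) and 0.95 over 12 at Meis2 (0.316 to 1.66). A ratio of 0.5 or less was found at 5 Tead1, 4 Meis1 and 2 Meis2 regions, that is 9.62%, 36.4% and 16.7%, against 8.53% of all regions. No region of the 3 loci reached 2, as did 3.53% of all regions and 6.75% of those with a stronger peak in either list. Before scaling, the AVC value was the higher one at 25 of the 52, 3 of the 11 and 6 of the 12 regions, against 57.9% of all regions. At Tead1 the share at or below 0.5 was close to the background; the Meis shares rest on 4 and 2 regions.

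The region of lowest scaled ratio at Tead1, at 119820959 to 119821745, had a value of 24 in the AVC and 59 in the chambers, a ratio of 0.369. The lowest at Meis1 was the flank of the main block at 18917211 to 18918459, with 90 and 199, and the lowest at Meis2 was the region at 115889077 to 115889928, with 31 and 89. The highest scaled ratios were 1.43 at Tead1, in the narrow region described above, 1.47 at Meis1 (18923238 to 18923788, 39 in the AVC and 24 in the chambers) and 1.66 at Meis2 (115896064 to 115896758, 44 and 24).

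Among regions where either peak was a stronger one, the median scaled ratio was 0.649 over 26 Tead1, 0.462 over 7 Meis1 and 0.879 over 6 Meis2 regions, against 1.01 over all 10056 such regions and 0.849, 0.828 and 0.959 over those of chromosomes 7, 11 and 2. Ratios of 0.5 or less made up 5 of the 26, 4 of the 7 and 2 of the 6, against 16.3% of all such regions, narrow and wide together. The background depended on width. Before scaling, the median ratio of stronger regions was 1.11 over the whole series, and 0.724 over the 5724 whose peaks were all at least 300 bp wide. At the loci the width limit changed little, from 0.717 to 0.739 (21 regions) at Tead1, with 0.509 (7 regions) at Meis1 and 0.97 (4 regions) at Meis2 under both. The Tead1 median was thus close to that of wide stronger regions elsewhere, and the Meis1 median lay below it and the Meis2 median above it, each on few regions. With ratios scaled by the median of wide stronger regions, 0 of 21, 0 of 7 and 1 of 4 regions were at 0.5 or less, in a setting chosen after seeing the data.

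**Figure D5:**
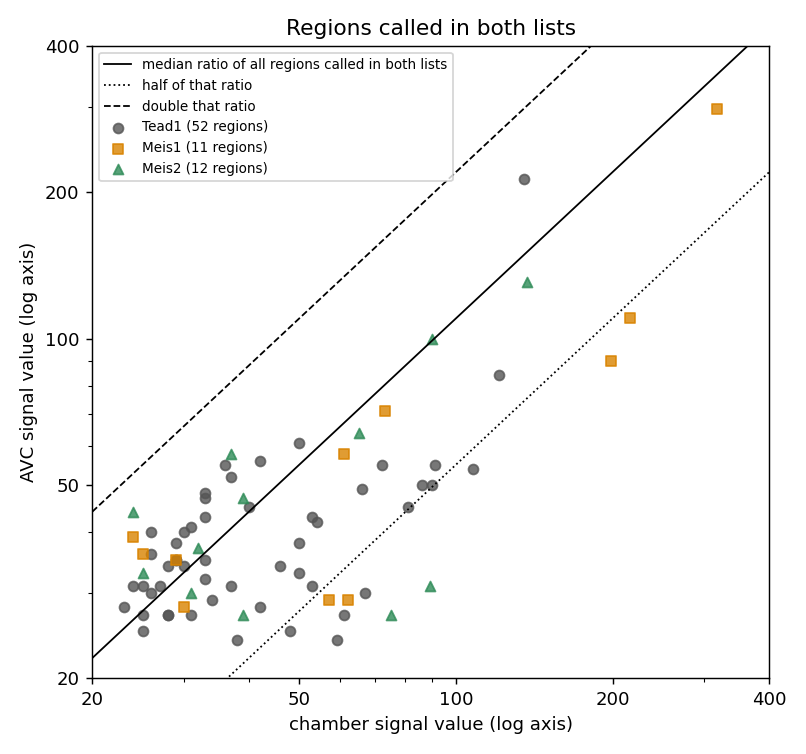
AVC signal value against chamber signal value for the 75 regions called in both lists, both axes logarithmic, with 1 library per tissue; the lines mark the median ratio over all regions called in both lists and 2-fold departures from it. Below the lower line lie 5 Tead1, 4 Meis1 and 2 Meis2 regions, and no point lies above the upper line.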

How the data were processed

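H3K27ac ChIP-seq was done in 1 AVC and 1 chamber sample. Per the labels, sorted cells were fixed before precipitation with an H3K27ac antibody and SOLiD sequencing. Bowtie, SAMtools and build mm9 appear in the submitters' processing notes, without versions or roles. Per the file headers, peaks were called in each library with OccuPeak 1.3, chromosome by chromosome, at a Log(ER) threshold of 2, for reads of length 50, with fragments modelled at 60.5 bp in the AVC and 68 bp in the chambers. A control library, and pooling before sequencing, are not given in the sources used here. The score deposited by the authors is Log(ER), whose log base is not stated. The deposited signal value is unnamed and unscaled between lists, and depth, which is unknown, can raise it.

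Starts were converted to count from 1. Peaks overlapping by at least 1 bp counted as shared; overlapping peaks of both lists were merged into regions, each with its highest signal value per list. Intervals are exact Clopper-Pearson at 95%. Overlap and window counting was checked on simulated lists. No test between tissues was made. Peaks named are the 3 of highest signal value per list and locus, the 2 highest without overlap, the regions of highest and lowest ratio, the fullest 20 kb bins and the longest gap. Others were named after their values were seen: the Meis2 region at 115890325 and the peaks at the ends of the windows. The members, windows, runs, chains and score classes were chosen with earlier results of these data known. Promoter sequences are RefSeq's for GRCm38.p6. Analyses used pandas 2.3.3, scipy 1.17.1, numpy 2.4.6 and matplotlib 3.10.9 under Python 3.11.15.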

Additional observations from a re-analysis of the deposited data

How the results depend on the processing

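Of 87 recomputed values, 70 stayed within the interval (or the quartiles of the ratio) of the value reported. With scores of 5 or more in both lists, the Tead1 chamber overlap was 33.3%, below the 40.2% of the whole list, where it had been above, and the Meis2 AVC share was 45.5%, above 41.8%, where it had been below. These stricter lists hold 30 and 11 peaks there. The same setting gave an AVC share of 36.2% at Tead1, against 41.8% of the whole lists. AVC overlap was 100% at Meis1 and 80.0% at Meis2, against 54.2%. Chamber overlap was 60.0% and 66.7%, against 40.2%. The Meis overlap intervals included these shares of the whole lists. At scores of 3 or more the Tead1 AVC share was 43.9%, and with peaks of at least 300 bp 59.6%; the shares of the whole lists moved the same way, to 50.2% and 66.9%. With overlap of at least 50% of the peak, 40.7% of Tead1 AVC peaks were shared, against 17.3% of all AVC peaks. With neighbours within 1 kb counted, 74.6% of AVC and 87.9% of chamber peaks at Tead1 were shared. In the whole lists 32.9% and 47.5% were. For chamber peaks the share was 61.0% at Meis1 (44.5 to 75.8) and 60.5% at Meis2 (43.4 to 76.0). Both of these intervals included the 47.5%. The median ratio at Meis1 was 0.992 with both peaks at least 300 bp wide and 0.457 with either score at 5 or more, and at Meis2 it was 1.34 with both limits, a setting chosen after seeing the data. In these settings ratios were scaled by the median of the regions kept, which turns the 0.462 given for Meis1 above into 0.457. The cause was not tested. No paired analysis was possible because there is 1 library of each tissue. Unknown depth limits what a missing peak shows.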

Other observations

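Of the 12 chamber peaks at Meis1 with scores from 3 to 5, 0 overlapped an AVC peak, which allows a share of up to 25% (3 counts of 12), against 32.4% of all chamber peaks of that class; the class was singled out after its values were seen. Most of these 12 peaks had an AVC peak within 1 kb, and the limit treats neighbouring peaks as independent. At Tead1, 19 of 39 chamber peaks with scores from 3 to 5 overlapped, 48.7%, and at Meis2 5 of 13, 38.5%.

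By covered bases, 36.5% of the AVC and 48.1% of the chamber bases at Tead1 lay in both lists, 48.4% and 39.1% at Meis1, and 32.0% and 33.7% at Meis2, against 14.9% and 26.7% of the whole lists. Both shares count the same shared bases, so the larger share only marks the list that covers fewer bases. This was the AVC list at Meis1, and the chamber list at the other loci and in the whole lists.

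Windows 1.5 times as wide held 146 AVC and 123 chamber peaks at Tead1, 32 and 45 at Meis1, and 37 and 42 at Meis2. The peak nearest the right edge inside the Meis1 window was a stronger chamber peak, at 18926944 to 18927339, with a signal value of 62 and a score of 8.08, 123 kb from the edge. At the left edge of the Tead1 window, AVC peaks with signal values of 28 (inside) and 30 (outside) lay 3.59 kb and 0.299 kb from it, and at the left edge of the Meis2 window AVC peaks of 30 and 30 lay 1.91 kb and 1.75 kb from it. Just outside the Meis1 window, AVC and chamber peaks of 32 and 30 lay 0.399 kb and 8.05 kb from the left and the right edge.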
